A study of Mus musculus with 16 samples.

Results

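The genes described here are those whose RNA, in mouse tibialis anterior muscle, was moderately higher 4 h after an injection of formoterol and differed little, or was lower, at 1 h. Their probes were chosen by the measured values themselves. With all values as log2 of the deposited ratio, which is a probe's intensity over the median of its array, the 4 h difference between the formoterol and saline means had to lie between 0.3 and 0.9, every formoterol mouse had to exceed every saline mouse at 4 h, and the 1 h difference had to be under 0.15. Probes also needed to be detected (a score of 1) on 4 or more arrays, and to carry a gene number in the ID. Symbols of solute carriers, ribosomal and proteasomal proteins, translation factors, ubiquitin enzymes and a few further families were left out by name, as were Stat3, Xbp1, Rora and Sqstm1. This left 69 probes of 67 genes, out of 2584 named probes of 2386 genes, 7596 detected probes and 46120 probes on the array. Of the 2584 named probes, 171 had a 4 h difference in the range, 135 of these had no overlap at 4 h, 85 of those were under 0.15 at 1 h, and 16 of the 85 fell to the list of symbols.

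Male wild type C57BL/10 ScSn mice of 6 to 7 weeks received formoterol, a long-acting agonist of the β2-adrenoceptor, at 100 µg/kg in 0.2 mL saline, or saline alone, as 1 injection into the peritoneum. Muscles were taken at 4 h or at 1 h, which gave 4 groups of 4 mice (formoterol and saline at 4 h, and the same treatments at 1 h), with each mouse on its own Sentrix BeadArray. The tibialis anterior of rodents is a fast, mostly glycolytic muscle, and whole muscle RNA also holds RNA of vessels, connective tissue, nerve and blood. More cells of a type and more RNA per cell therefore cannot be told apart.

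The β2-adrenoceptor of muscle fibres couples to the G protein Gs, raises cyclic AMP and activates protein kinase A, which phosphorylates the transcription factor CREB and a number of metabolic enzymes. Genes under direct CREB control are known for rapid, brief induction, and later waves of RNA follow through the transcription factors and coactivators made in the first wave. Formoterol and related agonists are known in rodents for glycogen breakdown, lipid mobilisation and, on repeated dosing, growth of fast fibres.

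Per array, the median intensity of the detected probes was 392.7 to 746.1, or 2.33 to 3.74 times the background given by undetected probes (score under 0.5). The dimmest arrays were formoterol replicates 2 and 3 at 4 h and the brightest was saline replicate 2 at 4 h. Of the muscle fibre markers, Casq1, Ryr1, Myh1, Eno3 and Actn3 were measured, and their summed ratio was 126 to 144 in formoterol and 119 to 144 in saline mice at 4 h. Gene names were read from probe IDs and are an inference. The 3 red cell markers were the haemoglobin genes Hba-a1, Hbb-b1 and Hbb-b2. At 4 h they summed to 47.9 to 82 in formoterol against 11.6 to 38.1 in saline mice, with no overlap. Their sums at 1 h were 43.2 to 77.4 in formoterol and 27.2 to 74.4 in saline mice, which overlap. The saline mice at 4 h thus had the lowest range. The 5 fibroblast markers summed at 4 h to 35.2 to 39.2 in formoterol against 43.5 to 62.8 in saline mice. The fibroblast sum was apart at 1 h as well, at 29.3 to 37.1 in formoterol against 42.3 to 51.7 in saline mice. At 4 h Col1a1, Col1a2 and Col3a1 were called lower, Dcn (0.06) and Mgp (0.00) were not, and saline replicate 2, with Col1a2 at 12.9 and Col3a1 at 14.3, gave the highest sum. The share of blood or of connective tissue in the members' differences was not tested.

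Over the 69 probes the median 4 h difference was 0.42 on the log2 scale, or 1.34-fold, and it ran from 0.30 for Vldlr (1.23-fold) to 0.83 for S100a9 (1.77-fold). The standard error (SE) of these differences, from a limma fit of the 4 group means over 16 arrays, was 0.06 to 0.27 with a median of 0.09. At 1 h the median difference of the same probes was 0.04, from -0.21 to 0.14. Over all 7596 detected probes the median difference was 0.02 at 4 h and -0.00 at 1 h. The lack of overlap at 4 h was a condition of the choice and is met by 10.5% of all detected probes in this direction. At 1 h no member had all formoterol mice below all saline mice, as 4.03% of detected probes did. In the limma fit, at a Benjamini-Hochberg adjusted p under 0.05, 64 of the 69 probes were called higher at 4 h (8.89% of all detected probes were) and 0 were called in either direction at 1 h (2.74% of all; 0 of the 69 also at an unadjusted p under 0.05). Because the same values chose the members, these counts describe the choice and nothing is read from them.

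**Figure D1:**
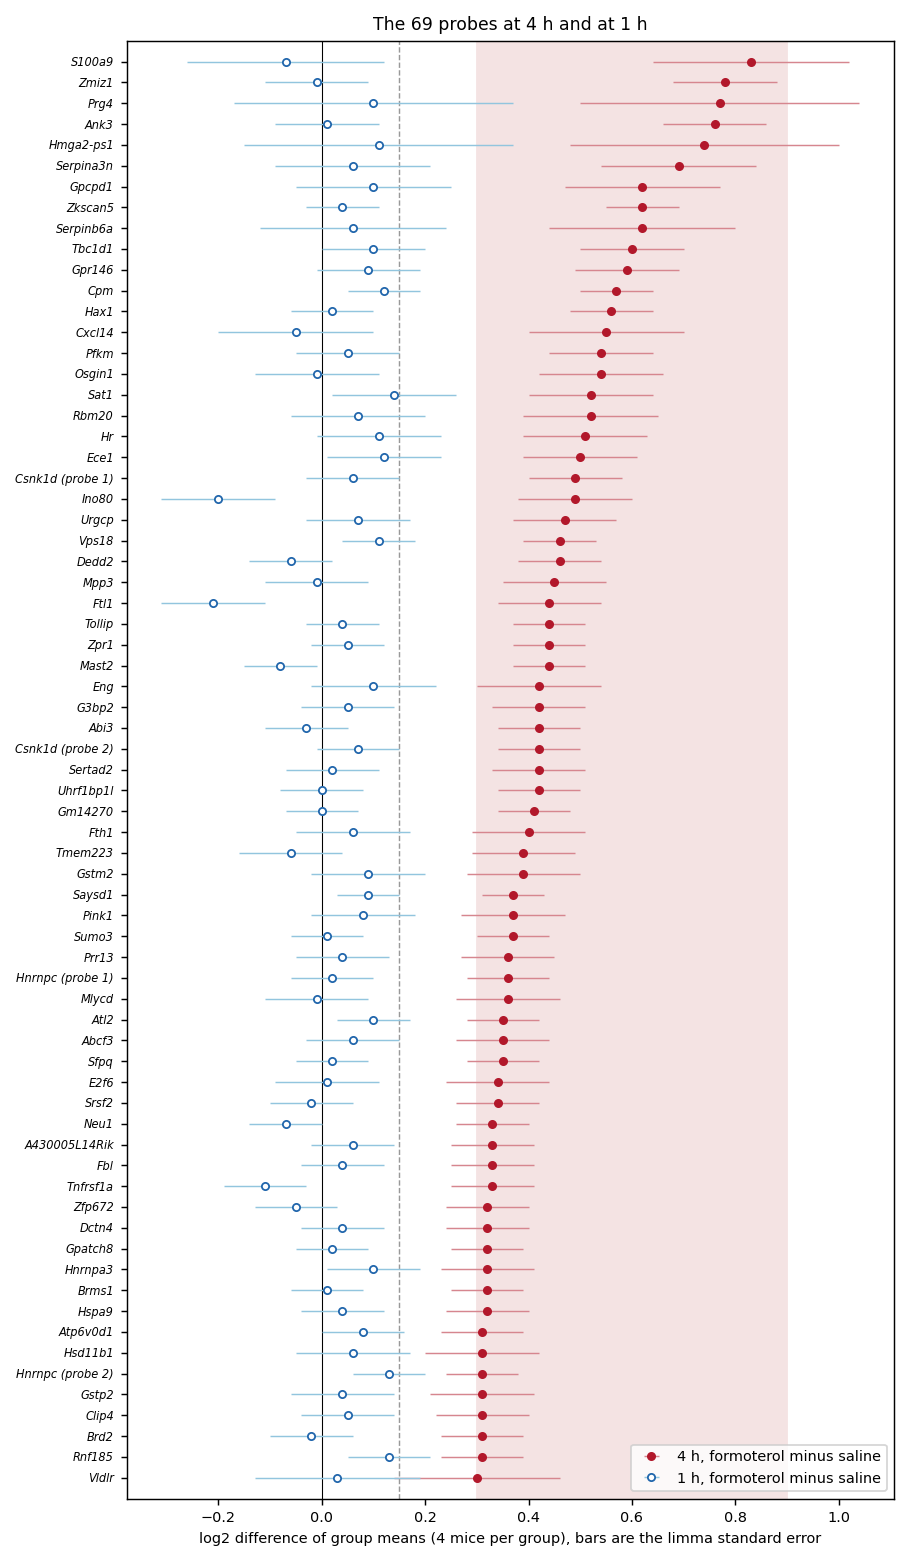
Difference between formoterol and saline means (x axis, log2) for each of the 69 probes (y axis), at 4 h as filled and at 1 h as open circles, with the limma standard error as bars and 4 mice per group. The shaded band from 0.3 to 0.9 and the dashed line at 0.15 are the limits of the rule; the 4 h values run from 0.30 to 0.83 and the 1 h values from -0.21 to 0.14.

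At the limits of the rule, Vldlr (0.30), Rnf185 (0.31) and Brd2 (0.31) were the lowest members by 4 h difference. Dnajb12, Pelo and Adrm1, at 0.30, 0.30 and 0.29, stood just below. At the upper end S100a9 (0.83), Zmiz1 (0.78, detected only in formoterol mice at 4 h, so that its size is a bound as given further on) and Prg4 (0.77) were followed, above the limit, by Plin4 at 1.02, Foxo1 at 1.20 and Fam13c at 1.33. By the 1 h limit Sat1 (0.14), 1 probe of Hnrnpc (0.13) and Rnf185 (0.13) were just inside, while Tinagl1 (0.15), Swt1 (0.16) and Ell2 (0.16) were just outside with 4 h differences of 0.88, 0.43 and 0.60. The group therefore has no gap at its lower limit or at its 1 h limit.

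The 4 formoterol mice at 4 h differed little from one another across the group. Set against the saline mean at 4 h, the median over the 69 probes was 0.41, 0.40, 0.43 and 0.43 in formoterol replicates 1 to 4. In the saline mice at 4 h the same median was 0.02, -0.11, 0.07 and 0.05. Saline replicate 2, the array with the highest median intensity, lay below its group and gave the lowest of the 4 saline values for 44 of the 69 probes. Without it the median 4 h difference of the 69 probes was 0.37, and 57 of the 69 still met the rule. Formoterol replicate 4 gave the highest value for 26 probes, and replicates 1, 2 and 3 for 13, 13 and 17.

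**Figure D2:**
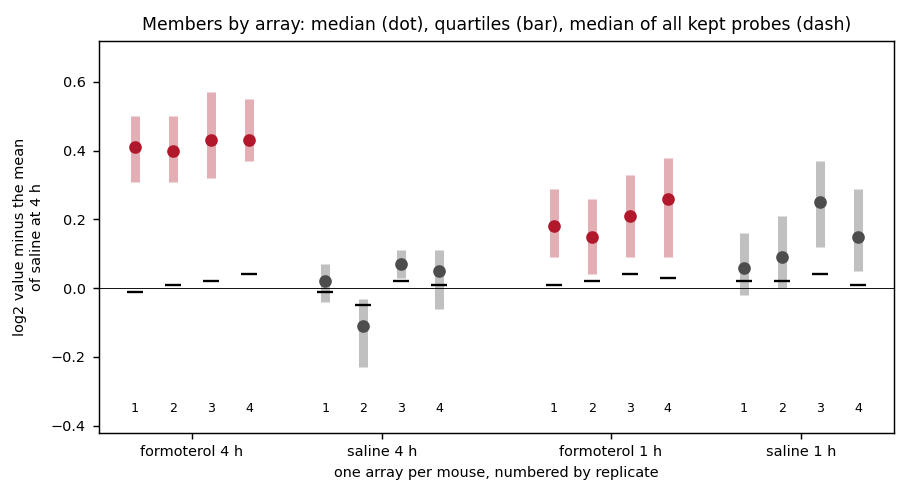
Median (dot) and quartiles (bar) over the 69 probes of the log2 value minus the saline mean at 4 h (y axis), for each of the 16 arrays (x axis, numbered by replicate within each group), with the median of all 7596 detected probes as a dash. The formoterol arrays at 4 h lie at 0.40 to 0.43, the saline arrays at 4 h at -0.11 to 0.07, and the formoterol and saline arrays at 1 h at 0.15 to 0.26 and 0.06 to 0.25.

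The arrays at 1 h show where the saline mice at 4 h stood. At 1 h the median over the 69 probes, again set against the saline mean at 4 h, was 0.15 to 0.26 in formoterol and 0.06 to 0.25 in saline mice, which overlap. All 8 arrays at 1 h lay below the 4 formoterol arrays at 4 h, and saline replicate 1 at 1 h, at 0.06, lay within the range of the saline arrays at 4 h. Formoterol mice at 4 h were higher than formoterol mice at 1 h in 62 of 69 probes (median 0.23), and saline mice at 4 h were lower than saline mice at 1 h in 63 of 69 (median -0.16). Over all detected probes the saline difference between times had a median of -0.02 and was below 0 in 57.6%. The formoterol difference between times had a median of -0.00 over all 7596 detected probes and was above 0 in 3698. In 7 probes all saline mice at 4 h lay below all saline mice at 1 h, as 3.16% of detected probes did. Limma called 19 of the 69 probes for formoterol at 4 h against 1 h (5.45% of all), 15 for the difference between the 4 h and 1 h responses (3.37% of all), and 0 for saline at 4 h against 1 h (0.0922% of all; 21 of the 69 at an unadjusted p under 0.05). With slide as a fixed block, the 19 became 12, and the methods' t-test called 1. Because the rule asked for high formoterol and low saline values on these same 4 h arrays, both shifts are in part built into the choice.

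Most 1 h arrays were on other slides than most 4 h arrays, so time and slide are largely confounded. On slide 2, which held replicate 4 of both 4 h groups and replicates 1 and 2 of both 1 h groups, the median of the members was 0.32 for formoterol at 4 h over 1 h and -0.06 for saline at 4 h over 1 h. Over all detected probes these medians were 0.02 and -0.00. On this slide the saline difference between times was below 0 for 43 of 69 probes. The 4 h difference itself was above 0 in all 69 probes within slide 1, with 3 mice a group (median 0.42, from 0.23 to 0.88), and within slide 2, with 1 mouse a group (median 0.41, from 0.01 to 1.04). The sign within each slide was fixed by the choice of members, which allowed no overlap at 4 h.

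In 29 of the 69 probes all 4 formoterol mice at 4 h exceeded the other 12 arrays, and 3.13% of all detected probes did so. In 4 probes, of Pfkm, Fth1 and Csnk1d (both probes), all 4 saline mice at 4 h lay below the other 12 arrays instead, as in 0.882% of detected probes. The remaining 36 probes met neither. The rule already asked for part of each pattern, formoterol above saline at 4 h, so these shares describe the members and are no result against the background. The formoterol part of the change over time was larger than the saline part in 42 probes and smaller in 27. The values of single genes below show both patterns.

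**Figure D3:**
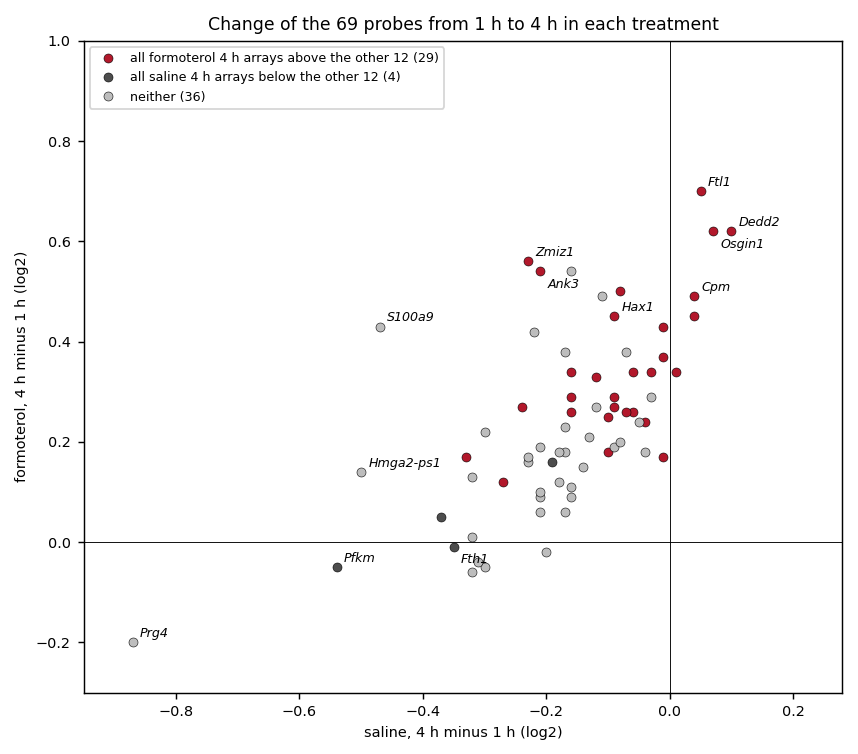
Change of each of the 69 probes between 1 h and 4 h in saline mice (x axis, log2 of 4 h minus 1 h) and in formoterol mice (y axis, same unit); colours mark the 29 probes with all formoterol values at 4 h above the other 12 arrays, the 4 with all saline values at 4 h below the other 12, and the other 36. Ftl1, Osgin1, Dedd2 and Cpm lie where the formoterol mice changed and the saline mice did not fall, and Prg4, Pfkm and Fth1 where the saline mice at 4 h were lower and the formoterol mice were not higher than at 1 h.

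Promoter sequences are shown for 6 members of 3 roles, to give the letters that the motif counts rest on. RefSeq promoters (build GRCm38.p6), 250 bases before to 50 after the first listed start, were matched for 50 of the 67 genes. The first listed start is not always the outermost. For Osgin1 the window lies inside the gene, which begins at chr8:119425882. Which start is used in muscle was not tested. The 6 were chosen after the values were seen, and each has 1 motif in capitals, on either strand. S100a9 has a C/EBP motif (TTGCNNAA), at chr3:90695672-90695971, minus strand; Gpr146 a cAMP response element half-site (TGACG), at chr5:139377447-139377746, plus strand. Pfkm has an E-box (CACGTG), at chr15:98092339-98092638, plus strand, and Cxcl14 a STAT motif (TTCNNNGAA), at chr13:56296502-56296801, minus strand. Osgin1 has an AP-1 motif (TGANTCA), at chr8:119436897-119437196, plus strand, and Ftl1 a pair of CCAAT boxes, at chr7:45459837-45460136, minus strand.
S100a9: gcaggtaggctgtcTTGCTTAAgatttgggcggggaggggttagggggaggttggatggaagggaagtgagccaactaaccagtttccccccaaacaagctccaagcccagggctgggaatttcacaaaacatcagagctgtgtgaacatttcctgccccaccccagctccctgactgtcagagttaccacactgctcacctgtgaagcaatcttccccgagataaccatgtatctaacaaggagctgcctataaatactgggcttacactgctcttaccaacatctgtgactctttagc
Gpr146: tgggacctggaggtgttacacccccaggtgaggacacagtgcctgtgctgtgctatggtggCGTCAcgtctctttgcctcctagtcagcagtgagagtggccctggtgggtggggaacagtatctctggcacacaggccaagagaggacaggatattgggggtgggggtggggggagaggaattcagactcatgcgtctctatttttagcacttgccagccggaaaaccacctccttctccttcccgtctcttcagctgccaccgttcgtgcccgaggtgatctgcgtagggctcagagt
Pfkm: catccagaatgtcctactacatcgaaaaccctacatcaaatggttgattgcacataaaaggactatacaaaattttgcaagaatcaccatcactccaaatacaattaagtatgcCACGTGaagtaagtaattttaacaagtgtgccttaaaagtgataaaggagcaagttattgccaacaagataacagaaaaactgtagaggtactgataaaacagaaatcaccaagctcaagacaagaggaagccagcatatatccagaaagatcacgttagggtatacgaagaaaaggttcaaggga
Cxcl14: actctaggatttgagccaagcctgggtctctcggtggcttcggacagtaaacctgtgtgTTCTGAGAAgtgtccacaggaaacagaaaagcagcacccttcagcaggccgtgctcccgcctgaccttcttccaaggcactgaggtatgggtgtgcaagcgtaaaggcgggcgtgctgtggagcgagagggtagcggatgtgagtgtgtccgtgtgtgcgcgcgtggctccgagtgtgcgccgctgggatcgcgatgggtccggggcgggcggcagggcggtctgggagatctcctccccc
Osgin1: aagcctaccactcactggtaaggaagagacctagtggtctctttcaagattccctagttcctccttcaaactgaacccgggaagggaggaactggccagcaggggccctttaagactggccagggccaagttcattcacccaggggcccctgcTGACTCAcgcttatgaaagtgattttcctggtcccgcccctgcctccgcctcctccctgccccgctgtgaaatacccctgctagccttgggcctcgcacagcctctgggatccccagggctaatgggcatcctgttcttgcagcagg
Ftl1: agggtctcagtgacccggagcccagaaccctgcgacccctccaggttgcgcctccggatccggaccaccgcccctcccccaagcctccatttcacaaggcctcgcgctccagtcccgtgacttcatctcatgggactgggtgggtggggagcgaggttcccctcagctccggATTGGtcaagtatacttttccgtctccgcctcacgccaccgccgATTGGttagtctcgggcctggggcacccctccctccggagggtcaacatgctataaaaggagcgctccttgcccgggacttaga

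The full cAMP response element (TGACGTCA) was in none of the 50 promoters, against 3.82% of 1939 promoters of named detected genes and 1.88% of all 27025 promoters. Its half-site TGACG, which the full element contains, was in 14 (28%), against 35.3% of named detected genes and 21% of all. C/EBP motifs were in 8 (16%), against 8.15% of named detected genes and 10.8% of all, and STAT motifs in 6 (12%), against 6.03% and 8.47%. AP-1 motifs were in 4 (8%), against 5.52% and 7.93%, and the E-box CACGTG was in 7 (14%), against 10.2% and 7.24%. CCAAT was in 21 (42%), against 38.4% and 37.9%. The antioxidant element core TGACNNNGC was in 9 (18%), against 15.6% and 12.5%, and Osgin1, Ftl1 and Gstm2 were not among the 9. The median GC content was 60.2% in members, 61% in named detected genes and 52.7% in all promoters. A match of letters is a description, and a window without a match says nothing of the factor.

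The members were grouped by role after they were known. The largest group comprised 11 genes of secreted proteins, proteases and receptors, with 4 h differences of 0.33 to 0.83 (median 0.57) and 1 h differences of -0.11 to 0.12. S100a9, a calcium-binding protein that neutrophils carry in bulk, gave ratios of 0.87, 0.927, 0.798 and 0.937 in formoterol mice at 4 h, against 0.591, 0.407, 0.508 and 0.499 in saline mice. All formoterol values were higher, but at 1 h 1 saline mouse, at 1.14, exceeded every formoterol mouse at 4 h. The S100a9 probe was detected in 4 of 4 formoterol and 1 of 4 saline mice at 4 h. It was the only one of 11 neutrophil markers found among the detected probes that could be named, so unnamed probes of other markers were not searched, and the 3 measured macrophage markers (Csf1r, Lyz2 and C1qb) summed to 1.91 to 2.32 in formoterol and 1.89 to 2.54 in saline mice. The haemoglobin genes named above were likewise without overlap in sum at 4 h, but overlapped at 1 h. The part of blood cells in the S100a9 value was not tested.

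Prg4, the lubricating glycoprotein of joints and tendons also called lubricin, gave 1.59, 1.99, 1.59 and 2.31 in formoterol mice at 4 h, against 1.16, 0.805, 1.31 and 1.12 in saline mice. Its values at 1 h were wide and overlapped, at 1.54 to 3 in formoterol and 0.957 to 2.86 in saline mice, so the 4 h formoterol values lay inside the range seen at 1 h. Its SE at 4 h, 0.27, was the widest of the 69. Serpina3n, a secreted inhibitor of serine proteases that rises in inflamed and wasting mouse tissue, gave 0.666 to 0.697 in formoterol and 0.312 to 0.545 in saline mice at 4 h. No saline array and 3 of 4 formoterol arrays at 4 h detected it, so its change is given as at least 1.21-fold. With 1 saline array at 1 h, these 3 brought the probe just through the detection filter. Serpinb6a, an intracellular inhibitor of the same superfamily, gave 3.94 to 4.92 against 2.36 to 3.09. Members of these serpin families are close in sequence, and the probe may read more than 1 of them.

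Cxcl14, a chemokine made by many epithelia and by muscle, gave 1.88, 1.9, 1.83 and 1.34 in formoterol mice at 4 h, against 1.19, 1.21, 1.3 and 1.02 in saline mice. Formoterol replicate 4 lay well below its group and only just above the highest saline value. Cpm, a membrane carboxypeptidase that trims basic residues from peptides, gave 0.835 to 1.06 against 0.594 to 0.658 at 4 h. It was the only member in which all formoterol mice also exceeded all saline mice at 1 h (0.636 to 0.667 against 0.586 to 0.625), as 4.37% of all detected probes did, with a 1 h difference of 0.12. Ece1, the endothelin-converting protease, gave 1.52 to 1.76 against 0.871 to 1.35. Gpr146, an orphan receptor tied to cholesterol control in mouse liver, gave 1.03 to 1.18 against 0.624 to 0.783.

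Receptors of vessel and immune signalling had smaller differences. Eng (endoglin), a co-receptor for TGF-β on endothelium, gave 0.895 to 1.06 in formoterol and 0.585 to 0.874 in saline mice at 4 h (difference 0.42). The 5 measured endothelial markers, Eng among them, summed to 5.09 to 5.57 against 5.16 to 6.28, and the lower sum rested on Emcn, which was called lower at 4 h (difference -0.71). The other 4 had 4 h differences above 0, at 0.14 for Pecam1, 0.10 for Fabp4, 0.04 for Egfl7 and 0.42 for Eng, of which Eng alone was called higher. Tnfrsf1a, the type 1 receptor of tumour necrosis factor, gave 1.63 to 2.04 against 1.39 to 1.54, and Tollip, an adaptor that dampens Toll-like receptor signalling, 1.12 to 1.21 against 0.777 to 0.907. A further Tollip probe, which the rule did not choose, overlapped between groups (0.612 to 0.704 against 0.483 to 0.657).

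Metabolic genes made a group of 7, with 4 h differences of 0.30 to 0.62. Tbc1d1, the Rab GTPase-activating protein that holds back GLUT4 vesicles in muscle until it is phosphorylated, gave 0.899, 0.923, 0.872 and 0.883 in formoterol mice at 4 h, against 0.611, 0.483, 0.645 and 0.633 in saline mice. All 4 formoterol values lay above the other 12 arrays, although the highest 1 h values, 0.849 in formoterol and 0.855 in saline, came close. Tbc1d1 had a 4 h difference of 0.60 (SE 0.10). Pfkm, the muscle isoform of phosphofructokinase and a control point of glycolysis, gave 3.43, 4.35, 4.08 and 4.31 against 2.96, 2.33, 2.93 and 2.88. In formoterol mice at 1 h the same probe stood at 3.92 to 4.65 and in saline mice at 3.53 to 4.52, so the saline mice at 4 h were the group that stood apart, by -0.54 from saline at 1 h. The second Pfkm probe, not chosen by the rule, gave 55.6 to 64.8 in formoterol and 45.3 to 55.7 in saline mice at 4 h, which just overlapped (difference 0.25).

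Gpcpd1, a glycerophosphodiesterase that acts on glycerophosphocholine and is abundant in fast muscle, gave 5.37, 4.93, 5.75 and 5.39 in formoterol mice at 4 h, against 3.58, 3.53, 3.76 and 3.1 in saline mice. The groups were apart by more than their own ranges, but the 1 h values of saline mice, 3.01 to 5.64, reached from below the lowest saline value to above 3 of the 4 formoterol values at 4 h. Mlycd, the malonyl-CoA decarboxylase that relieves the block on fatty acid entry into mitochondria, gave 3.32 to 3.85 against 2.47 to 3.23 (difference 0.36). Vldlr, the receptor that takes up very low density lipoprotein, gave 6.5 to 7.38 against 5 to 5.82, with 1 h saline values of 4.77 to 9.87 that enclose both groups. Hsd11b1, which regenerates active glucocorticoid in tissue, gave 1.04 to 1.21 against 0.78 to 1.03. Between 1 h and 4 h, Hsd11b1 changed by -0.05 in formoterol and by -0.30 in saline mice. Sertad2, which in mouse fat restrains lipolysis, gave 0.754 to 0.925 against 0.54 to 0.721.

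The chosen lists place these genes among their pathways. The list of lipid uptake, storage and oxidation had 31 measured genes, of which 6 were called higher and 2 lower at 4 h (limma, adjusted p under 0.05), with Mlycd the only called member, since Vldlr did not pass. The list of glucose and glycogen had 18 measured genes, with 2 higher (Pgd and Tkt) and 1 lower. Each gene of a list was read by its probe of highest mean signal, which for Pfkm is the probe outside the rule. Over all detected probes 8.89% were called higher and 7.07% lower at 4 h. The insulin, IGF and mTOR list had 18 measured genes, with 2 higher (Tbc1d1 and Foxo1) and 2 lower. Since the members were picked for this contrast, the calls among them are no separate evidence.

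Iron storage and defence against oxidants gave 6 genes, and the list of antioxidant genes and targets of the transcription factor NRF2 held 4 of them (Ftl1, Fth1, Gstm2 and Osgin1) among 28 measured genes, or 14.3%, where 2.81% of all named genes are members. Of the 28, 6 were called higher at 4 h, where 8.38% of all named genes were, and none lower. Among those 6 were Ftl1, Fth1 and Osgin1, which were chosen by this same contrast and are no separate evidence, and Gstm1, Mt1 and Srxn1 outside the rule. The median 4 h difference of the list was 0.07, against 0.02 over all named genes, so most of its genes lay near 0. At 1 h the list's median was 0.00.

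Ftl1, the light chain of the iron store ferritin, gave 11.6, 9.94, 9.86 and 9.61 in formoterol mice at 4 h, against 7.37, 8.12, 7.92 and 6.73 in saline mice. The formoterol mice at 1 h stood lower, at 5.41 to 7.36, than most saline mice at 1 h, at 6.13 to 8.15, so that the formoterol change between times (0.70) was the largest of the 69 probes while the saline change was 0.05. Fth1, the ferritin heavy chain that oxidises the iron, behaved otherwise. It gave 12.2, 15.1, 15.6 and 14.2 against 11.5, 8.83, 11.8 and 11.2 at 4 h, and 13.4 to 15.2 against 12.7 to 16.6 at 1 h. The formoterol mice thus did not differ between times (-0.01), and the saline mice at 4 h were lower than at 1 h by -0.35. Both ferritin chains have processed pseudogenes in mouse, and red cell precursors carry much ferritin RNA; the part of blood was not tested.

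Osgin1, an oxidative stress-induced growth inhibitor and known NRF2 target, gave 0.797, 0.847, 0.844 and 0.871 in formoterol mice at 4 h, against 0.519, 0.563, 0.602 and 0.639 in saline mice. The 8 mice at 1 h covered 0.459 to 0.723, so the 4 formoterol mice at 4 h exceeded all others. The probe was detected in 4 formoterol and 2 saline mice at 4 h and in 1 mouse at 1 h. The glutathione transferases Gstm2 and Gstp2, which conjugate electrophiles, gave 1.12 to 1.42 against 0.767 to 1.11 and 6.52 to 8.32 against 4.62 to 6.51. Each belongs to a family of near-identical copies, and in Gstp2 the lowest formoterol and the highest saline value almost met. A second Gstm2 probe outside the rule gave 3.49 to 4.32 in formoterol and 2.89 to 3.58 in saline mice (difference 0.25). Sat1, the spermidine and spermine acetyltransferase that starts polyamine breakdown, gave 1.4 to 1.98 against 1.09 to 1.19, and its 1 h difference of 0.14 was the nearest to the limit.

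**Figure D4:**
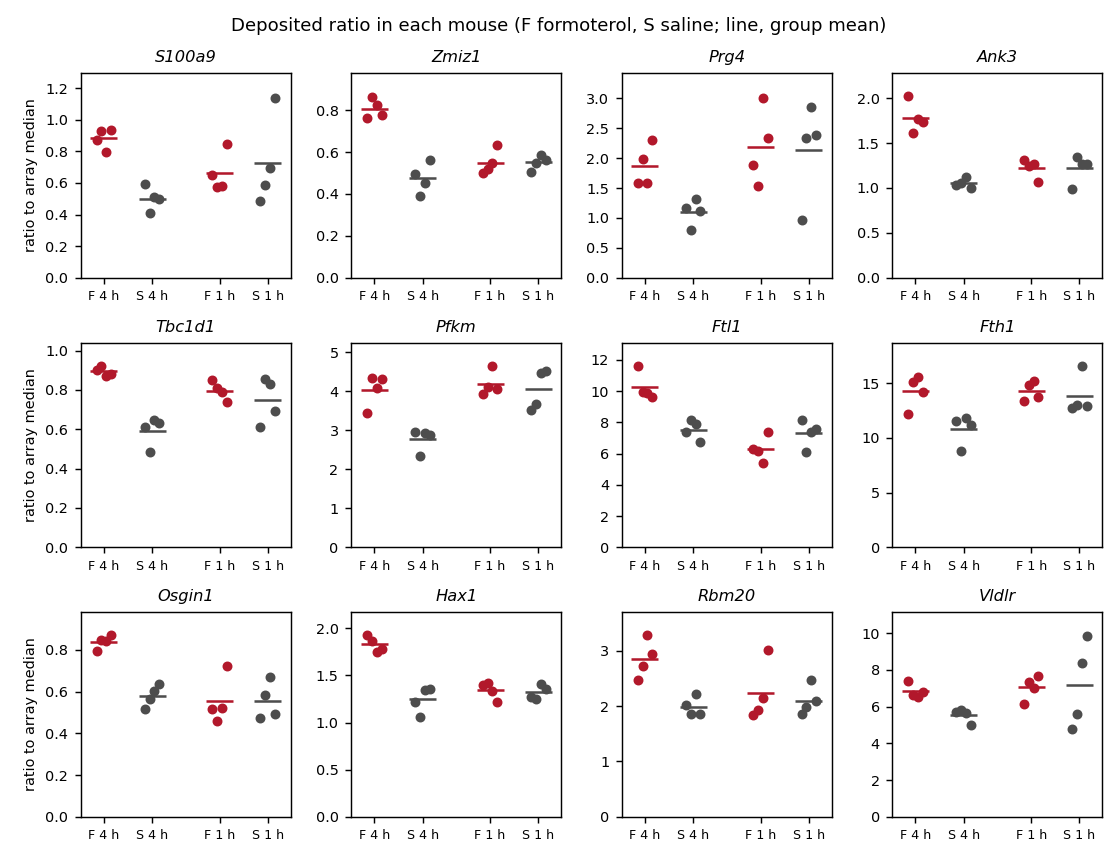
Deposited ratio to the array median (y axis, linear from 0) in each mouse for 12 members, with formoterol (F, red) and saline (S, grey) at 4 h and then at 1 h along the x axis, and the mean of 4 mice as a line. Ftl1, Osgin1, Hax1, Zmiz1 and Ank3 have formoterol values at 4 h above all other arrays, while Pfkm and Fth1 have saline values at 4 h below all other arrays. Zmiz1 passed the detection filter only through the formoterol arrays at 4 h.

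Mitochondrial proteins gave 4 genes. Hax1, which holds back apoptosis at the mitochondrial membrane, gave 1.93, 1.87, 1.75 and 1.78 in formoterol mice at 4 h, against 1.22, 1.06, 1.35 and 1.36 in saline mice. No other array exceeded 1.42, and its difference of 0.56 (SE 0.08) was the largest of the 4. Pink1, the kinase that marks damaged mitochondria for removal, gave 4.01, 4.1, 4.83 and 3.98 against 3.73, 3.02, 3.31 and 3.05. Formoterol replicate 3 was well above its group, and the other 3 formoterol mice lay close to the highest saline mouse. Hspa9 (mortalin), the matrix chaperone that pulls proteins through the import channel, gave 3.82 to 4.53 against 2.94 to 3.59, and Tmem223, an assembly factor of cytochrome oxidase in human cells, 1.08 to 1.28 against 0.743 to 1.04. The list of mitochondrial proteins had 38 measured genes, with 5 higher (Hax1, Pink1, Hspa9, Coq10b and Iscu) and none lower at 4 h, and a median difference of 0.03. Of all named genes 8.38% were called higher at 4 h and 6.87% lower. Hax1, Pink1 and Hspa9 were chosen on this contrast, so their calls are no separate evidence.

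RNA-binding proteins gave 11 probes of 10 genes, with 4 h differences of 0.31 to 0.52. Rbm20, the splicing regulator of titin and of calcium-handling genes in striated muscle, gave 2.47, 2.72, 3.29 and 2.94 in formoterol mice at 4 h, against 2.03, 1.85, 2.22 and 1.85 in saline mice. A formoterol mouse at 1 h, at 3.01, already lay in the 4 h formoterol range, and the other 3 did not. Hnrnpc, which binds uridine-rich stretches of nascent RNA, was read by both of its probes, at 4.04 to 4.33 against 2.98 to 3.43 and at 4.37 to 4.67 against 3.36 to 3.95. Both gave close differences of 0.36 and 0.31. Srsf2 gave 3.55 to 4.13 against 2.74 to 3.41, Sfpq 1.24 to 1.41 against 1.01 to 1.07, and Hnrnpa3 0.795 to 1.02 against 0.719 to 0.757. These are a splicing activator, a paraspeckle protein and a packaging protein of nuclear RNA, and Hnrnpa3 has many processed copies in the genome.

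G3bp2, a core protein of stress granules, gave 2.12 to 2.6 in formoterol and 1.53 to 2.03 in saline mice at 4 h. Fbl (fibrillarin), the methyltransferase of ribosomal RNA, gave 1.27 to 1.37 against 0.978 to 1.15, and Abcf3, a cytosolic ATPase of the ABC family, 1.41 to 1.78 against 1.11 to 1.38. Zpr1, a zinc finger protein that binds the SMN complex, gave 1.6, 1.59, 1.59 and 1.61 against 1.16, 1.02, 1.24 and 1.33, so its formoterol mice were nearly identical and its saline mice were not. Gpatch8, a protein with a G-patch motif, gave 2.08 to 2.23 against 1.62 to 1.75. The list of mRNA splicing and processing had 90 measured genes, with 11 higher and 1 lower at 4 h, and Srsf3, G3bp1 and Ythdc1 were among the higher genes outside the rule. Of all named genes 8.38% were called higher and 6.87% lower. The 11 include the members G3bp2, Hnrnpa3, Hnrnpc, Sfpq and Srsf2, whose calls are no separate evidence. The list's median was 0.06, and 5.56% of its genes are members, where 2.81% of all named genes are.

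Chromatin and transcription gave 8 genes. Zmiz1, a coactivator related to the SUMO ligases of the PIAS family, gave 0.765, 0.864, 0.824 and 0.778 in formoterol mice at 4 h, against 0.494, 0.39, 0.45 and 0.562 in saline mice. No array outside the formoterol group at 4 h exceeded 0.632, and none of those 12 arrays detected the probe, so the change is given as at least 1.42-fold. The probe thus passed the detection filter only through the group where it was high, and nothing is read from its detection there alone. Zkscan5, a zinc finger protein of the KRAB and SCAN type, gave 1.09 to 1.2 against 0.673 to 0.78 (difference 0.62, SE 0.07). Hr (hairless), a corepressor of nuclear receptors, gave 0.956 to 1.08 against 0.597 to 0.933. Its highest saline mouse was replicate 4, just under the lowest formoterol mouse.

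Ino80, the ATPase of a nucleosome remodelling complex, gave 0.836, 0.783, 1.08 and 0.818 in formoterol mice at 4 h, against 0.656, 0.541, 0.603 and 0.697 in saline mice. At 1 h its formoterol mice were the lower group on average (difference -0.20), with ranges of 0.51 to 0.663 and 0.635 to 0.81 that overlapped. Brd2, a reader of acetylated histones, gave 1.48 to 1.61 against 1.16 to 1.34, and its further probe, outside the rule, 1.03 to 1.2 against 0.833 to 0.996, again with no overlap. E2f6, the repressor of the E2F family, gave 0.789 to 0.826 against 0.526 to 0.701. At 1 h it gave 0.782 to 0.83 in formoterol and 0.654 to 0.952 in saline mice. Between 1 h and 4 h, E2f6 changed by 0.01 in formoterol and by -0.32 in saline mice. Its 2 further probes gave, at 4 h, 4.94 to 5.32 against 4.13 to 4.86, with no overlap, and 1.01 to 1.23 against 0.772 to 1.09. Brms1, a subunit of histone deacetylase complexes, gave 0.813 to 0.862 against 0.65 to 0.728, and the zinc finger gene Zfp672 1.83 to 2.14 against 1.4 to 1.76. In the list of chromatin and general transcription, 4 of 76 measured genes were called higher and 6 lower at 4 h. Of all named genes 8.38% were called higher and 6.87% lower. Brd2 and Ino80, among the 4, were chosen on this contrast.

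Kinases and genes of cell death gave 5 probes of 4 genes. Csnk1d, the casein kinase 1δ that phosphorylates the period proteins of the circadian clock, was read by both probes. The first gave 2.19, 1.87, 1.87 and 1.96 in formoterol mice at 4 h, against 1.24, 1.35, 1.5 and 1.55 in saline mice, and the second 2.1, 1.74, 1.7 and 1.84 against 1.25, 1.36, 1.47 and 1.42. On both probes the saline mice at 4 h were below all other arrays, with 1 h values of 1.79 to 2.02 in formoterol and 1.65 to 2.02 in saline mice on the first. Mast2, a microtubule-associated kinase, gave 5.51 to 6.17 against 4.07 to 4.57. Dedd2, a death effector domain protein of the nucleus, gave 0.95 to 1.06 against 0.683 to 0.777, and Urgcp 1 to 1.11 against 0.705 to 0.814. A further Urgcp probe overlapped, at 0.551 to 0.687 against 0.4 to 0.632.

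Cytoskeletal and scaffold proteins gave 5 genes, of which 4 had all formoterol values at 4 h above the other 12 arrays. Of the 69 member probes 29 did so, and of all detected probes 3.13%. The rule already asked for formoterol above saline at 4 h, and the role groups were formed after the values were seen. Nothing about cytoskeletal genes is therefore read from this count. Ank3 (ankyrin-G), which anchors sodium channels and the dystrophin complex to the spectrin skeleton, gave 2.02, 1.61, 1.77 and 1.74 in formoterol mice at 4 h, against 1.03, 1.05, 1.12 and 1 in saline mice. No other array exceeded 1.35, and its difference of 0.76 (SE 0.10) was 1.69-fold. Mpp3, a membrane scaffold of the MAGUK family, gave 1.02 to 1.1 against 0.681 to 0.838, and Abi3, a partner of the actin-nucleating WAVE complex, 0.674 to 0.78 against 0.493 to 0.619. Dctn4, a subunit of dynactin, gave 1.61 to 1.89 against 1.29 to 1.49. Clip4, of the microtubule-binding CAP-Gly proteins, was the exception, at 5.03 to 5.5 against 3.93 to 4.43 at 4 h, with 4.88 to 6.07 and 4.4 to 5.96 at 1 h. In the list of cytoskeleton and contractile apparatus, 7 of 81 measured genes were called higher and 7 lower. Of all named genes 8.38% were called higher and 6.87% lower. Ank3 and Dctn4, among the higher genes, were chosen on this contrast.

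Membrane traffic, lysosome and protein modification gave 7 genes with differences of 0.31 to 0.46. Vps18, a core subunit of the tethering complexes of late endosomes, gave 1.21 to 1.4 in formoterol and 0.888 to 0.973 in saline mice at 4 h. The lysosomal genes Neu1 (a sialidase) and Atp6v0d1 (a subunit of the proton pump) gave 0.91 to 1.03 against 0.712 to 0.838 and 1.53 to 1.75 against 1.28 to 1.39. In the list of autophagy and lysosome, 4 of 29 measured genes were called higher and none lower at 4 h, namely these members with Cln8 and Sqstm1. Of all named genes 8.38% were called higher and 6.87% lower. Neu1 and Atp6v0d1 were chosen on this contrast, so their calls are no separate evidence. Atl2, which fuses tubules of the endoplasmic reticulum, gave 1.77 to 2.03 against 1.43 to 1.62, while its further probe overlapped widely (2.32 to 3.39 against 1.88 to 4.53, difference 0.06). Uhrf1bp1l, a lipid transfer protein of endosomes, gave 1.1 to 1.18 against 0.745 to 0.952. Rnf185, a ubiquitin ligase of the endoplasmic reticulum, gave 1.31 to 1.48 against 0.986 to 1.21, with 1 h formoterol values of 1.34 to 1.48. Sumo3, a ubiquitin-like modifier, gave 1.54 to 1.7 against 1.17 to 1.35.

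For 5 genes no role is given. Hmga2-ps1 and Gm14270 are annotated as pseudogenes, and the transcript that their probes read is not settled. Hmga2-ps1 gave 0.761, 1.13, 0.749 and 0.998 in formoterol mice at 4 h, against 0.569, 0.387, 0.556 and 0.67 in saline mice, with 1 h values up to 1.21 in saline mice. Gm14270 gave 1.09 to 1.35 against 0.878 to 0.939, and no array of the other groups exceeded 0.939. A430005L14Rik gave 0.897 to 1.04 against 0.731 to 0.848, Prr13 3.26 to 3.63 against 2.52 to 2.84, and Saysd1 0.946 to 1 against 0.717 to 0.789.

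Probes of the same genes that the rule did not choose share the RNA and the arrays, so they are no independent reading. There were 10 further detected probes for 9 of the genes, and all 10 had a 4 h difference above 0, with a median of 0.25, where 54.1% of detected probes were above 0. Their genes were chosen by this contrast on these same arrays, so nothing is read from this count. The further probes of Urgcp, Tollip, Dctn4 and Sumo3 were dim, with mean ratios of 0.602 to 0.629 and detection on 5 to 8 arrays. Of the 10, only those of Brd2 and E2f6 named above had no overlap. A further 7 probes of 6 genes were not kept by the detection filter, and none was detected on any array. Their 4 h differences were 0.04 to 0.22, and probes outside the filter had a median of 0.12 as a whole, with 90.9% above 0. This positive shift of undetected probes sits beside the low median intensity of 2 formoterol arrays and the high one of 1 saline array, and the deposited ratios carry no background subtraction; how much of it the members share was not tested probe by probe. The median ratio of all probes on an array was 0.357 to 0.475 in formoterol and 0.313 to 0.488 in saline mice at 4 h.

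In 26 of the 69 probes (37.7%) the mean ratio was under 1, against 46.5% of named detected probes. Their median 4 h difference was 0.45, and that of the 43 others 0.37. After background correction with normexp and quantile normalisation these medians were 0.56 and 0.39. Over all detected probes the median 4 h difference after that correction was -0.01. Of the 69 probes, 55 were detected on all 16 arrays and 14 on fewer, the fewest being 4 arrays, and only Zmiz1 and Serpina3n were undetected in every saline mouse at 4 h.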

How the data were processed

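Tibialis anterior RNA of 16 mice was measured on 16 Illumina Sentrix arrays, 4 for each of formoterol and saline at 4 h and at 1 h. Per the labels, BeadStudio 1.5.1.3 was used by the authors for the scans, and the deposited bead intensity is not normalised. The deposited detection score runs from 0 to 1. The deposited ratio was made by the authors, by dividing each intensity by the array median over the detected probes. Recomputed from the intensities it differed by a relative 0.0025 at most. From this ratio log2 was taken, with no background subtraction, which bears on differences of dim probes.

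The 4 condition means entered a fit in limma 3.58.1 under R 4.3.3 (12 residual and 5.83 prior degrees of freedom), with Benjamini-Hochberg adjustment over 7596 probes and calls at an adjusted p under 0.05. The fit was tested on simulated data. Slides were 3, with 4 h replicates 1 to 3 on slide 1. Probe numbers were matched to genes of the GRCm38.p6 RefSeq table. Bounds take, per undetected array, the higher of the probe's ratio and the lowest ratio of a detected probe. Precision is limited by the number of arrays. Named in full are the 15 members with the largest 4 h difference, the 10 with the highest signal, list members, members with further probes, probes at the limits and members undetected in saline mice; other genes and the role groups were chosen after their values were seen. The members, lists and motifs were chosen with earlier results of these data known. Tables and figures used Python 3.11.15, pandas 2.3.3, numpy 2.4.6 and matplotlib 3.10.9. Alternatives were 3 other scalings, a floor at percentile 1, 2 other filters, slide and replicate blocks, other tests and leaving out arrays.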

Additional observations from a re-analysis of the deposited data

Results flagged for a closer look

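In 13 of 276 sets of 4 mice (69 probes in 4 groups), 1 mouse stood apart by Dixon's criterion, with a gap to its nearest neighbour of over 0.829 of the group's range. Chance gives about 1 in 20, or 13.8. Saline replicate 2 at 4 h, the array with the highest median intensity, accounts for 5 of the 13, always as the lowest value: Serpinb6a (2.36, others 2.95 to 3.09, gap 0.836), Gpr146 (0.624, others 0.758 to 0.783, gap 0.857), Pfkm (2.33, others 2.88 to 2.96, gap 0.881), Ece1 (0.871, others 1.25 to 1.35, gap 0.832) and Fth1 (8.83, others 11.2 to 11.8, gap 0.845).

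In formoterol mice at 4 h, replicate 4 was low for Cxcl14 (1.34, others 1.83 to 1.9, gap 0.897) and replicate 3 was high for Pink1 (4.83, others 3.98 to 4.1, gap 0.837). In saline mice at 4 h, replicate 3 was high for Atl2 (1.62, others 1.43 to 1.45, gap 0.865). In saline mice at 1 h, replicate 3 was high for the second Csnk1d probe (1.74, others 1.5 to 1.52, gap 0.904) and for Fth1 (16.6, others 12.7 to 13, gap 0.93). Replicate 1 of that group was low for Ece1 (1.16, others 1.28 to 1.31, gap 0.83) and Dctn4 (1.35, others 1.45 to 1.46, gap 0.906) and high for Hnrnpa3 (0.849, others 0.717 to 0.732, gap 0.877). No member had every formoterol mouse below every saline mouse at 1 h, so none reversed between times without overlap.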

How the results depend on the processing

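The choice of members, with no overlap at 4 h, fixes the sign of their 4 h difference when arrays are left out, so its sign is no measure of stability. Its median, 0.42, was 0.38 with quantile normalisation, 0.47 with normexp, and 0.37 to 0.44 with 1 array left out (lowest without saline replicate 2 at 4 h). It was 0.39 without the 3 arrays of extreme median intensity, an alternative chosen after seeing the data. The spread of this median between formoterol mice is 0.01. It leaves out the saline mice, whose medians at 4 h were -0.11 to 0.07, so it is no error of the difference. The rule found 68 probes with quantile normalisation (59 of them members), 77 with normexp (57 members), 84 without those 3 arrays (59 members), 95 with the 4 h arrays of slide 1 alone (56 members), and 60 to 101 with 1 array left out.

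Limma called 64 of the 69 probes at 4 h, on the values that chose them. Prg4, Hmga2-ps1, Hsd11b1, Gstp2 and Vldlr were not called. The count was 27 with no filter on dim probes, 27 with the methods' t-test, and 56 to 67 with 1 array left out. Without the filter many more probes enter both the fit and the adjustment, and their parts were not separated. At 1 h limma and the methods' t-test called 0, and 0 were under an unadjusted p of 0.05. For the difference between responses 15 were called, 2 with no filter, 4 at an adjusted p under 0.01, and 10 to 20 with 1 array left out. For formoterol at 4 h against 1 h 19 were called, 9 with no filter, 12 with slide as a fixed block, 1 with the methods' t-test, 12 at an adjusted p under 0.01, and 13 to 23 with 1 array left out. For saline at 4 h against 1 h limma called 0 (21 under an unadjusted p of 0.05), as did the methods' t-test, 1 with the floor and 0 to 3 with 1 array left out. The cause of these shifts was not tested.

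Replicate numbers do not pair the mice (correlations of same-numbered deviations -0.26 to 0.3). With the replicate number as a block, 68 probes were called at 4 h, 0 at 1 h, 14 for the difference, 18 for formoterol between times and 1 for saline between times. The methods' t-test was not run on the difference of responses, nor the fit of 1 time on contrasts across times. The counts of both cAMP response element forms were 0 and 12 in the 250 bases before the start alone. Dim arrays, of 2.33 times background at the lowest, limit what can be read of weak probes.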
